A study of Mus musculus with 26 samples.

Results

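Amphiregulin, the other ligands of the EGF family and the 4 ErbB receptors were examined by gene symbol in bulk RNA-sequencing counts of mouse lung group 2 innate lymphoid cells (ILC2s). The 10 genes are the ligands Areg, Ereg, Hbegf, Tgfa and Btc, the receptors Egfr, Erbb2, Erbb3 and Erbb4, and Plek, a neighbour of Egfr on chromosome 11, out of 55401 gene identifiers in each count table. All 10 were found by symbol. The rule itself uses no measured value, but the genes were proposed with earlier results of these data known. In the first experiment, ILC2s were sorted as CD90+ CD127+ CD25+ ICOS+ cells from unchallenged wild-type female mice, 3 of C57BL/6J and 3 of CC030GeniUnc (CC030, a Collaborative Cross strain), without treatment or culture. In the second, CD90+ CD127+ ST2+ lung ILC2s of 5 female CC030 mice were cultured with IL-33, TSLP and human IL-2 in every well, and with either DMSO vehicle or 10 µM AR420626, an agonist of the short-chain fatty acid receptor FFAR3, for 2 or 6 days. The cells of each mouse were split between the conditions, so that each of the 4 cultured groups holds 5 libraries. The mice were age-matched adults per the study's methods, there was no cultured C57BL/6J group, and each library is a mixture of all cells that passed the sort.

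Ligands of the EGF family are made as membrane-bound precursors, which proteases such as ADAM17 release, and they act on ErbB receptor tyrosine kinases that pair on binding. Amphiregulin and TGF-alpha bind EGFR, whereas epiregulin, heparin-binding EGF-like growth factor and betacellulin bind both EGFR and ErbB4. ErbB2 has no known ligand, and ErbB3 signals mainly through its partners. ILC2s and regulatory T cells are known sources of amphiregulin, which takes part in the repair of airway epithelium. Plek encodes pleckstrin, a protein kinase C substrate of platelets and leukocytes, with no part in ErbB signalling.

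Libraries of the groups differed widely before any of these genes is considered. In C57BL/6J, genes took 13533363 to 15234305 counts per library, and 15946 to 16553 of them had a count. CC030 naïve libraries held 1324595 to 1524751 counts, over 43527 to 46111 genes. Cultured libraries held 227445 (AR420626 day 2, mouse 4) to 5320028 counts (vehicle day 2, mouse 5), with 2.06% to 11.1% of their reads in genes. The summed level of 10 ILC2 markers, among them Gata3, Il1rl1 and Il7r, was 8015 to 10020 CPM (counts scaled to the library total) in C57BL/6J, 292.6 to 359.4 CPM in CC030 naïve and 85.4 to 457 CPM in culture. Olfactory receptor genes, which lymphocytes are not known to use, served as a yardstick of low levels. Per kilobase of exon, 10 of 10 ILC2 markers lay above the 95th percentile of the 1093 olfactory receptor genes in C57BL/6J, 1 of 10 in CC030 naïve and in vehicle at day 6, and none of the 10 in the other cultured groups. By these markers the CC030 rows do not show the labelled cell type, although the sort selected it. In C57BL/6J, 8 epithelial markers summed to 29.4 to 11420 CPM, with 8 of 8 above the olfactory 95th percentile. Other sums there were 324.9 to 758.7 CPM for 6 T cell markers and 324.9 to 815.5 CPM for 6 mast cell and basophil markers. They were 0.148 to 987.8 CPM for 8 macrophage and neutrophil markers and 0 to 4.655 CPM for 6 fibroblast markers. The sum for 4 platelet markers was 52.84 to 129.1 CPM, with 3 of 4 above the olfactory 95th percentile. The part of other cell types in the C57BL/6J values was not tested.

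In naïve C57BL/6J ILC2s, Areg stood far above every other ligand and receptor. Areg (ENSMUSG00000029378, chr5:91139599-91148432 on GRCm38, plus strand) had 7978, 5721 and 5340 counts in the 3 libraries. These are 485, 327 and 289 CPM per exonic kilobase, with a mean of 366.8 ± 104.3 (SD, n = 3), which placed Areg at rank 187 of 21897 protein-coding genes. Its neighbour Ereg (chr5:91074622-91093646, plus strand), encoding epiregulin, had 0 counts in each of the 3. A count of 0 allows up to 3 counts in a library, on average 0.319 CPM after scaling, and covers counting error only.

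The sequence around the Areg start is shown because Areg was the only ligand at a high level in these cells. It is the RefSeq promoter window on GRCm38.p6, chr5:91139349-91139648 on the plus strand, of 300 bases, printed 5′ to 3′.
Areg promoter: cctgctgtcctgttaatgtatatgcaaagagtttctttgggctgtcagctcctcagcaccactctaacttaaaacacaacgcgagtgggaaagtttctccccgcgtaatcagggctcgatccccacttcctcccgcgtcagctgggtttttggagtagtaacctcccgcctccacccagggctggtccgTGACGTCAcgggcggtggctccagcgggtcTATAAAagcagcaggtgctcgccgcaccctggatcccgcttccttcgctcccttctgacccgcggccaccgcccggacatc
The capitals mark TGACGTCA, the cyclic AMP response element, which starts 61 bases before the gene's start, and the TATA-box letters TATAAA, which start 31 bases before it. The former was searched on both strands and stood in 1.79% of 32851 mouse promoter windows of this length, and the latter was searched on the gene's strand and stood in 8.32%. Of the 7 examined genes with a window in the table, Areg was the only one with either motif. A match is a description of letters and was not tested for binding.

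The remaining genes were near or at 0 in C57BL/6J. Plek had 256, 0 and 147 counts, or 2.12 ± 2.11 CPM per exonic kilobase, so that 1 library lacked it. Hbegf had 0, 0 and 94 counts, Tgfa 1, 18 and 30, Erbb2 11, 9 and 50, Erbb3 1, 6 and 0, and Btc 1, 0 and 1. Egfr and Erbb4 had 0 counts in every library. By mean level per exonic kilobase the order was Areg, Plek, Hbegf (0.426 ± 0.737), Erbb2 (0.302 ± 0.285), Tgfa (0.169 ± 0.147), Erbb3 (0.0272 ± 0.0369) and Btc (0.0103 ± 0.00896), then Ereg, Egfr and Erbb4 at 0. Below Areg, each neighbour in this order overlapped the next in its spread. Among the receptors, Erbb2 lay above Erbb3 in 3 of 3 libraries without overlap, at 0.120 to 0.630 against 0 to 0.0692 CPM per exonic kilobase, and Egfr and Erbb4 had no count. In bulk RNA, fewer cells with a transcript and less transcript per cell cannot be told apart.

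**Figure D1:**
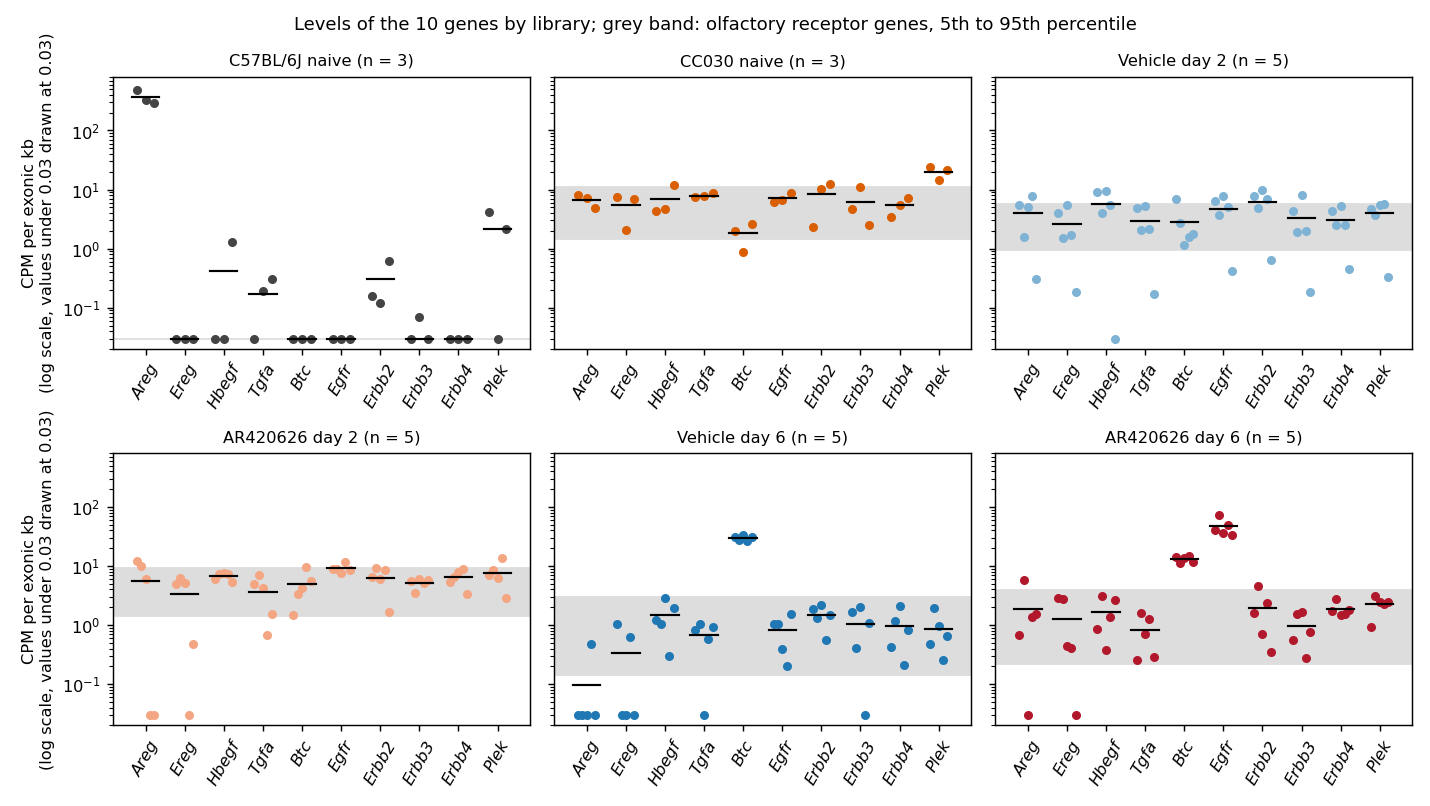
Levels of the 10 genes in CPM per exonic kilobase (log scale) in each library of the 6 groups, with black bars for group means and a grey band for the 5th to 95th percentile of 1093 olfactory receptor genes. Areg stands at 366.8 in C57BL/6J, in CC030 naïve 9 of 10 genes lie in the band, and at day 6 Btc lies above it in both groups and Egfr with AR420626.

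In CC030 naïve libraries Areg was lower and most of the other rows were higher. Areg had 13, 13 and 9 counts, against 5340 to 7978 in C57BL/6J, and the groups did not overlap. After TMM scaling this was 5.37 ± 1.32 against 687.2 ± 249.9 CPM, and the fitted log2 difference was -7.00 (SE 0.52, edgeR quasi-likelihood test, adjusted p = 0.000446), or 128-fold lower. Egfr (ENSMUSG00000020122, chr11:16752203-16918158, plus strand) had 92, 112 and 154 counts against 0, 0 and 0, at least 169-fold higher when 3 counts per library stand for 0. Erbb4 had 56, 103 and 138 counts, at least 139-fold higher, and Ereg 41, 13 and 44, at least 47.1-fold higher. Tgfa, Btc, Erbb2 and Erbb3 passed the test as higher too, with log2 differences of 4.40, 5.93, 3.68 and 6.43. Hbegf (28, 34 and 89 counts, log2 difference 3.05, adjusted p = 0.176) and Plek (143, 96 and 147 counts, 2.04, adjusted p = 0.230) did not pass.

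Thus 8 of the 10 genes passed, beside 76.3% of all 35551 genes tested. The median log2 difference of all genes was 7.03, and it moved by 0.54 when DESeq2 size factors replaced TMM scaling. Relative to that median, Ereg, Egfr and Erbb4 lay above it, and Tgfa, Btc, Erbb2 and Erbb3 lay below it although they passed as higher. The calls of these genes kept their direction with both scalings. CC030 values are those of the rows named for these genes, which may hold counts of other genes. The strains also differ in depth, number of genes with a count and reference used for alignment, none of which can be told apart from strain here.

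Per kilobase of exon the CC030 naïve rows were close to each other. The mean was 9.60 ± 1.90 counts per exonic kilobase for Areg, 10.5 ± 2.79 for Egfr, 8.01 ± 3.33 for Erbb4, 7.91 ± 4.14 for Ereg and 11.5 ± 1.62 for Tgfa, while Btc had 2.66 ± 1.33 and Plek 28.7 ± 6.32. A ligand that was 366.8 CPM per exonic kilobase in C57BL/6J thus stood beside receptors that had no count there. In CC030 naïve, 9 of the 10 genes lay between the 5th and 95th percentile of the olfactory receptor genes (1.48 to 11.2 CPM per exonic kilobase). The exception was Plek at 19.9 ± 5.08, rank 423 of 21897 protein-coding genes. Olfactory receptor genes had no count in any library for 85.7% of the family in C57BL/6J and for 1.65% in CC030 naïve. The part of such widespread low counts in the strain differences was not tested.

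At day 2 of culture no effect of AR420626 passed the test for any of these genes. Egfr had 86, 107, 102, 74 and 25 counts with vehicle in mice 1 to 5, and 91, 116, 80, 30 and 99 with AR420626. In scaled CPM these are 22.5 to 43.1 and 35.9 to 81.1, ranges that overlap, with a log2 difference of 0.41 (SE 0.49, adjusted p = 1 by edgeR). Areg had 8, 5, 7, 12 and 2 counts with vehicle and 13, 14, 7, 0 and 0 with AR420626, too few for a test, and the libraries at 0 are those of mice 4 and 5. Of 9 genes tested none passed, beside 0% of all 20865 genes tested, and their log2 differences lay between -0.68 (Erbb2, SE 0.44, lower in 5 of 5 mice with overlapping groups) and 0.41 (Egfr). Plek had 25, 42, 28, 32 and 8 counts with vehicle and 28, 45, 27, 14 and 13 with AR420626, and in scaled CPM it was higher with AR420626 in 5 of 5 mice, at 10.7 to 30.3 against 7.21 to 15.9. These groups overlap, and the log2 difference was 0.26 (SE 0.46). Over the 20865 genes tested, 403 had an unadjusted p under 0.05 by edgeR, a share below the 0.05 that chance alone would give. DESeq2 called 15. In vehicle at day 2, 9 of the 10 genes lay within the 5th to 95th percentile of the olfactory receptor genes, and with AR420626 all 10 did.

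At day 6 the Egfr row was high in every library with AR420626. Egfr, the receptor of amphiregulin, had 22, 19, 5, 8 and 29 counts with vehicle and 560, 1173, 459, 663 and 402 with AR420626 in mice 1 to 5. The groups did not overlap, and the row was higher in 5 of 5 mice. In scaled CPM this was 15.3 ± 9.37 against 654 ± 150.1 (SD, n = 5), a log2 difference of 5.76 (SE 0.36, edgeR adjusted p = 3.39e-12), or 54.2-fold. Leaving out each mouse in turn gave log2 differences of 5.39 to 6.21, all past the threshold. Per exonic kilobase Egfr went from rank 14971 of 21897 protein-coding genes with vehicle, inside the range of olfactory receptor genes, to rank 502.

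Btc moved the other way. The betacellulin row (ENSMUSG00000082361, chr5:91357261-91402994, minus strand) had 228.6, 168.2, 184, 380.9 and 232.4 scaled CPM with vehicle and 90.6, 47.9, 86.6, 97.5 and 60.9 with AR420626 in mice 1 to 5, from 174 to 411 and 56 to 81 counts. It was lower in 5 of 5 mice, and the groups did not overlap. The log2 difference was -1.33 (SE 0.23, edgeR adjusted p = 0.000185), or 2.52-fold lower, and leaving out each mouse gave -1.39 to -1.27. Plek (ENSMUSG00000020120, chr11:16971206-17052381, minus strand) had 4, 14, 5, 4 and 5 counts with vehicle and 5, 20, 12, 12 and 12 with AR420626. It was higher in 5 of 5 mice, but the ranges overlapped and the difference of 1.40 (SE 0.70) did not pass (adjusted p = 0.200). Erbb4 had 9 to 30 and 20 to 48 counts, with a log2 difference of 1.15 that did not pass (adjusted p = 0.0830), except without mouse 3, where it was 1.54 (adjusted p = 0.0288). Erbb2 differed by 0.06 (SE 0.66).

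**Figure D2:**
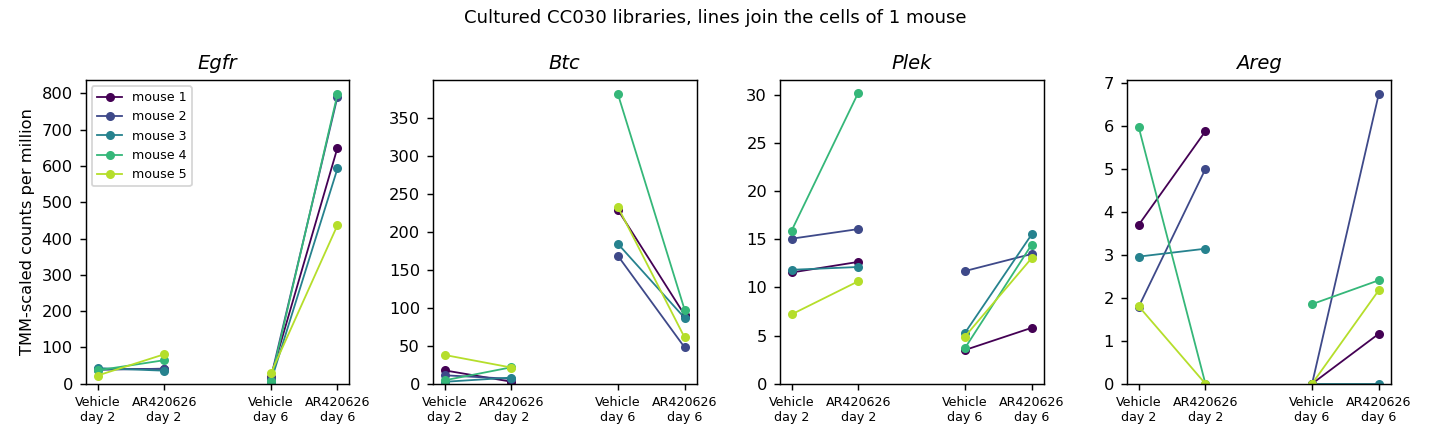
TMM-scaled CPM of Egfr, Btc, Plek and Areg in the 20 cultured CC030 libraries, with a line joining vehicle and AR420626 libraries of 1 mouse at each day. Egfr rises in 5 of 5 mice at day 6, Btc falls in 5 of 5, and Areg stays between 0 and 6.74 CPM.

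Areg stayed at few or no counts at day 6. It had 0, 0, 0, 2 and 0 counts with vehicle and 1, 10, 0, 2 and 2 with AR420626, and it was not tested. Ereg, Hbegf, Tgfa and Erbb3 also stayed under the minimum for a test at this comparison, with highest counts of 16, 21, 15 and 19 in any day 6 library. Of 5 genes tested 2 passed, Egfr and Btc, beside 11.4% of all 9421 genes tested. The 8 epithelial markers, genes of a cell type that uses EGFR, summed to 321.8 to 460 CPM with vehicle. With AR420626 the sum was 359 to 426.8 CPM, and these ranges overlap. The 10 ILC2 markers summed to 85.4 to 146.5 CPM with vehicle and 90.2 to 138 CPM with AR420626. None of the 8 epithelial markers was at 0 in every library of either group. Among all protein-coding genes this share was also low, at 6.17% with vehicle and 6.03% with AR420626. The 6 fibroblast markers summed to 12 to 70 CPM with vehicle and 38.4 to 101.4 CPM with AR420626. The part of other cell types in these rows was not tested.

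The effect of AR420626 on Egfr differed between the days. The difference of its effects was 5.03 on the log2 scale (SE 0.97, edgeR adjusted p = 0.0273), and Egfr was the only one of 9 genes tested that passed, beside 0.0519% of 23141 genes (12 genes). That call was lost without mouse 1, 2, 3 or 4 (adjusted p from 0.168 to 0.350, log2 values from 4.57 to 5.07) and without mouse as a block (4.87, adjusted p = 0.0652). With AR420626 Egfr was higher at day 6 than at day 2 in 5 of 5 mice by 3.42 (SE 0.84, adjusted p = 0.0198), which was lost in the same way without mouse 1, 2, 3 or 4 (adjusted p from 0.0700 to 0.112). With vehicle it was lower in 4 of 5 mice by a log2 difference of -1.42 that did not pass (adjusted p = 0.0770), and it passed without mouse 5 (-1.65, adjusted p = 0.00445).

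Btc rose from day 2 to day 6 in both treatments. With vehicle its counts went from 38, 31, 6, 9 and 42 to 174 to 411, a log2 difference of 4.47 (SE 0.87, edgeR adjusted p = 0.00247). With AR420626 they went from 6, 18, 18, 10 and 26 to 56 to 81, a difference of 2.68 (SE 0.49, adjusted p = 0.00561). The groups did not overlap in either treatment, and for Btc the effects of AR420626 at day 6 and day 2 did not differ past the threshold (-1.26, SE 0.88, adjusted p = 0.994). It was the only gene of 8 tested that passed with vehicle, beside 17.3% of 15819 genes, and 1 of 2 that passed of 9 tested with AR420626, beside 11.2% of 14731 genes. Erbb2 was lower at day 6 than at day 2 with vehicle in 5 of 5 mice and without overlap, at 9.21 to 15.8 against 16.2 to 24.9 scaled CPM, but its difference of -0.89 (SE 0.46, adjusted p = 0.185) did not pass unless 10 counts were required in every library (-2.05, adjusted p = 0.00815). Plek was lower too in 5 of 5 mice with vehicle, by a difference of -1.16 that did not pass (adjusted p = 0.175), and its groups overlapped. These comparisons share libraries, so their calls are not independent.

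Because CC030 reads were aligned to an mm9 pseudogenome and converted to mm10 coordinates, whereas C57BL/6J reads were aligned to mm10, the next question was which transcript each row counts in CC030. Levels of all genes around a member in C57BL/6J were moved along the chromosome by a given number of bases, and the level that then fell on the exons of each gene was correlated with its CC030 level. The values are Pearson r across genes of log2(CPM per exonic kilobase + 1), with no test, since neighbouring genes share libraries and exons. A C57BL/6J library against the mean of the other 2 fitted best with moves between -50 and 100 bp, at r = 0.864 to 0.937.

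At day 6 the rows of the receptors fitted best after a move of many kilobases. In windows of 4 Mb to each side, levels of C57BL/6J matched vehicle day 6 best when moved by -562100 bp around Erbb3 (r = 0.745 over 258 genes, 0.00608 without a move) and by -139050 bp around Erbb2 (0.620 over 438 genes, 0.0439 without a move). The best move was 159650 bp around Hbegf (0.618) and -49750 bp around Tgfa (0.605). Around Areg, Ereg and Btc the best move was -443900 bp at r = 0.350 to 0.357, around Egfr -582950 bp (0.461 over 87 genes), around Plek 394400 bp (0.507) and around Erbb4 -506850 bp (0.626). Other moves came close in 2 of these regions, 428000 bp around Btc at r = 0.328 and 931000 bp around Erbb4 at 0.608. With windows of 8 Mb to each side, the best moves were 427750 bp around Areg, Ereg and Btc (r = 0.332 over 316 genes), -100400 bp around Egfr and Plek (0.489 over 203 genes, 0.0415 without a move) and 48050 bp around Erbb4 (0.540).

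Single libraries gave the same move at day 6 in most regions and rarely at day 2. With the wider window, 5 of 5 vehicle day 6 libraries gave a best move within 5 kb of the group's at Egfr, Erbb2, Erbb3, Erbb4, Hbegf and Tgfa, and 4 of 5 at Areg. With AR420626 at day 6 it was 5 of 5 at Erbb2, Erbb3, Erbb4 and Tgfa, 4 of 5 at Hbegf, 1 of 5 at Areg and 0 of 5 at Egfr. Around Egfr the mean of the AR420626 day 6 libraries had r = 0.352 at -100400 bp and 0.361 at its own best move of -520500 bp. At day 2 it was 0 to 2 of 5 in each group and region, and in CC030 naïve 0 of 3 at each. Windows of 8 Mb in steps of 4 Mb along chromosome 11, from 3 to 31 Mb, were added after these values were seen. Each overlaps the next, so they are not independent. For the mean of all day 6 libraries they gave best moves of -100000, -95000, -95000, -99600, -100350 and -96200 bp, at r = 0.467 to 0.701. Other moves came close in the windows that hold Egfr. From 11 to 19 Mb, 2592000 bp had r = 0.5564, beside 0.5755 at the best move. From 15 to 23 Mb, 2678000 bp had 0.4869, beside 0.4996. On chromosome 5, windows that start at 80, 84 and 88 Mb, of which the last 2 hold Areg, gave 467000, 1286600 and -443950 bp, and those that start at 92, 96, 100 and 104 Mb gave 425750, 401600, 428950 and 428900 bp. Around Areg the best move thus depended on the window.

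**Figure D3:**
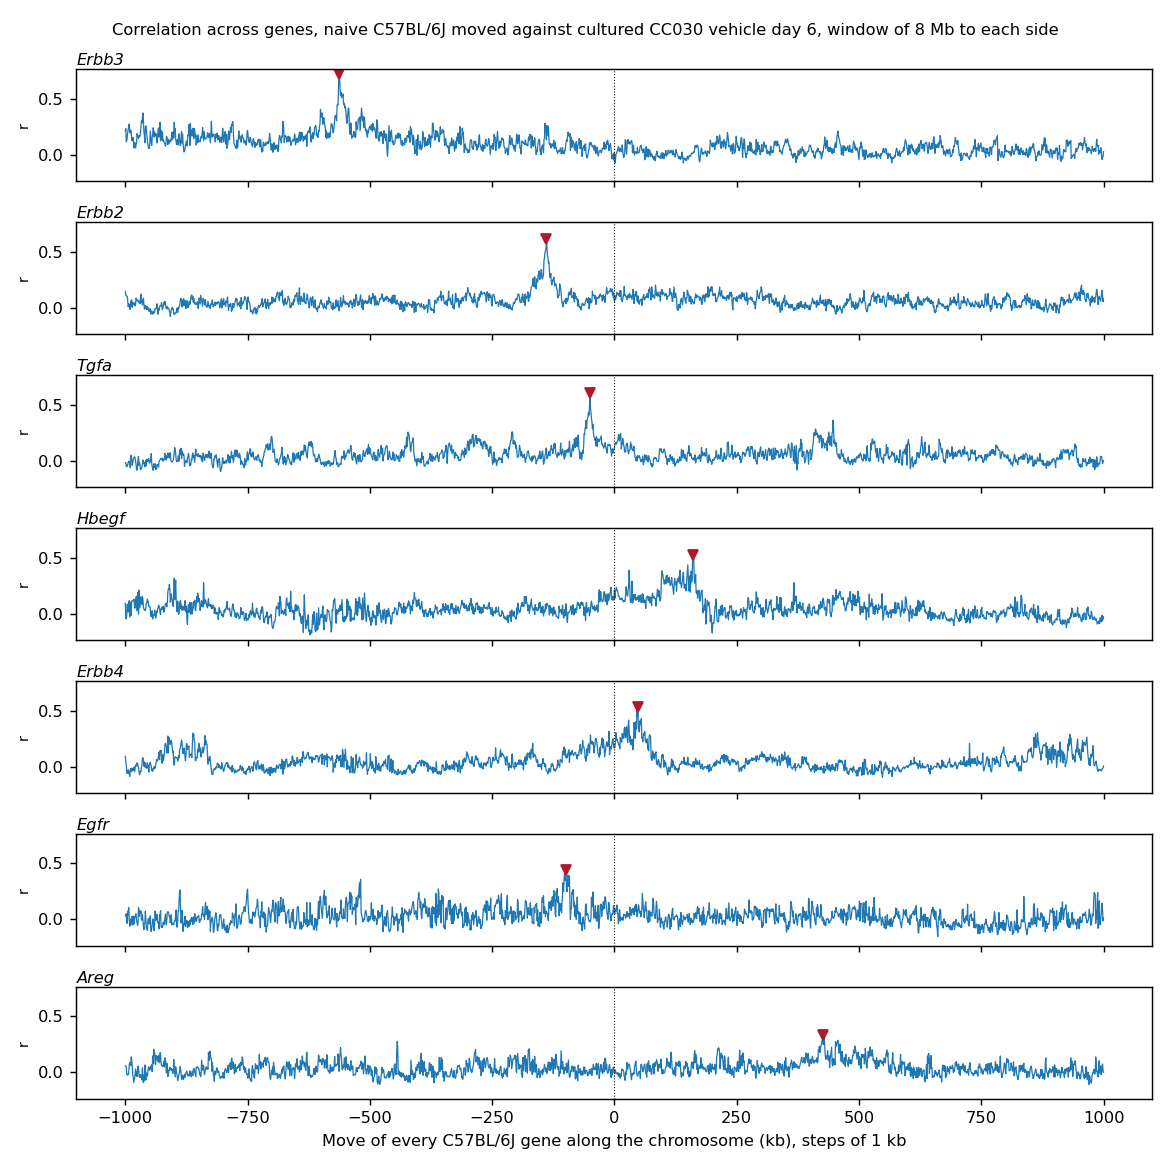
Pearson r across genes between naïve C57BL/6J levels moved along the chromosome (x axis, kilobases) and CC030 vehicle day 6 levels, in windows of 8 Mb to each side of 7 genes, with a triangle at the best move within 1000 kb and a dotted line at no move. The peaks lie away from 0, at -562100 bp for Erbb3, -138700 bp for Erbb2, -100400 bp for Egfr and 427750 bp for Areg.

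At the move found with the wider window, part of the transcript of Plek falls on Egfr. With -100400 bp, chosen after the values were seen, 499 bases of Plek exons cover Egfr exons, out of 11326 exonic bases of Egfr. Within 1 kb of that move the overlap is 161 to 607 bases. The part of Plek in the counts of the Egfr row was not tested. At least 409 of the 499 bases lie under the last exon of Plek, of 2948 bases. That exon holds 1 coding base and is otherwise 3′ untranslated. Moved, it spans chr11:16870806-16873753 and covers 4 Egfr exons whole, together 409 bases, all coding. The processed pseudogene Gm12014 adds 273 bases and had no count in C57BL/6J. Exons 8 and 9 of the 28 exons of Egfr (chr11:16870976-16871092 and chr11:16871583-16871709, plus strand, GRCm38) are printed as the letters that a read from a reference Egfr transcript would carry there. Egfr reads of CC030, a Collaborative Cross strain, may differ from these letters at some bases. Capitals mark the exon and lower case the 20 bases of the neighbouring exons in the spliced transcript, from GENCODE vM21.
Egfr exon 8: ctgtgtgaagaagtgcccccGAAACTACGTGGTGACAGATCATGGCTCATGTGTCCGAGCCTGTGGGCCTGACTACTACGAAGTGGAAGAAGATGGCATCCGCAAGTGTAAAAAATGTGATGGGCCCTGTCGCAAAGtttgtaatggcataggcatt
Egfr exon 9: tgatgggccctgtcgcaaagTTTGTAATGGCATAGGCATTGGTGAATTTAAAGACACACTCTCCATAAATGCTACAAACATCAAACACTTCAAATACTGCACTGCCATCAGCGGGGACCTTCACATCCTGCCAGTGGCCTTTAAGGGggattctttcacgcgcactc
Both lie in the part of the transcript that encodes the extracellular region of EGFR. The count tables hold no reads, so that which of these letters the counted reads carry was not tested.

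The Plek assignment depends on the move. At the best moves of AR420626 day 6 itself, -376200 bp in the narrower window puts 705 bases of C1d exons on Egfr (C1d, a nuclear RNA-processing factor, 78.3 CPM per exonic kilobase in C57BL/6J), and -520500 bp in the wider one puts no exon there. At -582950 bp, the narrower window of vehicle day 6, no exon falls on Egfr either. In C57BL/6J, Plek had 2.12 ± 2.11 CPM per exonic kilobase and Egfr 0, while with AR420626 at day 6 the Egfr row had 46.5 ± 15.9 and the Plek row 2.24 ± 0.81. Without cultured C57BL/6J cells, the Plek level in culture has no measure here that is free of the row positions.

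At their best moves, some of the other rows shared bases with another gene and some did not. At 427750 bp, Mthfd2l, encoding a mitochondrial enzyme of folate metabolism, covers 1549 bases of the 4520 exonic bases of Btc, 812 to 2023 within 1 kb. At day 6 the Mthfd2l row itself had 26.3 CPM per exonic kilobase with vehicle and 11.1 with AR420626. The Btc row had 29.9 ± 2.85 and 13.1 ± 1.74. At day 2 the Mthfd2l row had 5.62 and 10.9, beside 2.84 and 4.89 for Btc, and in CC030 naïve 7.96, beside 1.83. Mthfd2l was at 2.47 in C57BL/6J, and its row in CC030 may hold counts of other genes too. Moved by the same amount, the exons of Areg fall within Parm1, between its exons, with 0 bases of overlap, and those of Ereg cover 144 bases of Parm1. Around Erbb3 the olfactory receptor gene Olfr770 falls on it with 500 bases, and Erbb3 falls on Prim1, encoding a subunit of DNA primase, with 510. Zpbp2 covers 266 bases of Erbb2 at -138700 bp and none at -139050 bp. Cystm1 covers 218 bases of Hbegf, while Hbegf exons fall on Apbb3 and Eif4ebp3. No exon of another gene falls on Tgfa or Areg at these moves, and Erbb4 is overlapped only by its own exons, with 156 bases. In the narrower window of vehicle day 6, at -443900 bp, no exon falls on Areg, Ereg or Btc. At 394400 bp nothing falls on Plek, and at -506850 bp Gm37061 covers 123 bases of Erbb4. The cause of these moves was not tested, nor was whether the positions counted in CC030 and the annotation belong to the same genome build. If they did not, CC030 rows would hold counts of other genes than those they are named for, so that each CC030 value here, Areg and Egfr included, is the value of a row.

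No protein-coding neighbour within 500 kb of Egfr reached its level with AR420626. The mean levels of these 9 genes at day 6 were 0.706 to 3.98 CPM per exonic kilobase with vehicle and 0.668 to 3.63 with AR420626. Fbxo48, an F-box gene 33.2 kb away, had 3.98 ± 2.50 with vehicle and 1.32 ± 0.75 with AR420626. Sec61g, a subunit of the protein translocation channel, had 1.07 ± 0.83 and 3.63 ± 1.56, with overlapping libraries. Pno1, needed for ribosome assembly, and C1d were at 52.5 and 78.3 in C57BL/6J, and C1d was at 1.41 with vehicle and 2.70 with AR420626 at day 6. Of these neighbours only Plek passed the filter on low counts, so the other 8 were not tested.

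**Figure D4:**
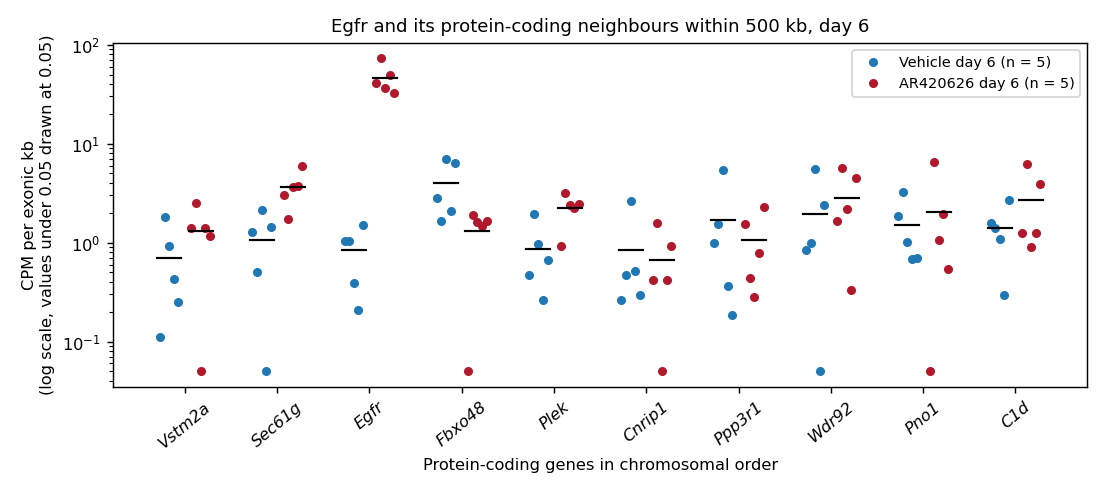
CPM per exonic kilobase (log scale) of Egfr and its 9 protein-coding neighbours within 500 kb in each day 6 library, in chromosomal order, with black bars for means of 5 libraries. Egfr with AR420626, at a mean of 46.5, lies above every other point.

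Genes of the ErbB pathway outside the 10 showed no shared direction at day 6. Of 79 genes in 7 lists, chosen with earlier results of these data known, 40 were tested, of which 1 rose and 3 fell (10%, beside 11.4% of all genes). Crem, a cyclic AMP-responsive regulator, rose by 0.86 on the log2 scale (adjusted p = 0.0224), while Gata3, the lineage factor of ILC2s, fell by 1.57 (0.00154), Fosl1, an AP-1 subunit, fell by 1.78 (0.00660) and Dusp4, a phosphatase of MAP kinases, fell by 0.82 (0.0167). None of 9 adaptors and first effectors, 5 RAS and MAP kinase genes, 4 shedding genes or 5 other ErbB ligands tested passed. The medians were 0.46 for the adaptors, 0.62 for RAS and MAP kinase, -0.08 for shedding and 0.23 for the other ligands, beside 0.10 for all genes. Nrg3 (1.30, adjusted p = 0.161), Rhbdf2 (-1.12, 0.107), Sos2 (1.59, 0.0742) and Nras (1.36, 0.161) had the smallest p of these lists. At day 2, and for the difference between the days, none of 76 and 78 tested genes passed.

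Between the strains the pathway genes moved in both directions. Of 79 genes tested 21 were higher and 22 lower in CC030 (54.4%, beside 76.3% of all genes). Of 9 genes on a list for the control of amphiregulin in lymphocytes, 8 were lower and none higher, at a median of -4.17. Their median level was 54.4 CPM per exonic kilobase in C57BL/6J and 5.97 in CC030 naïve. For all protein-coding genes it was 0.169 and 7.15. Whether the direction of this list differs from that of other rows high in C57BL/6J was not tested. The genes called lower include Il1rl1, the IL-33 receptor subunit (-4.88, edgeR adjusted p = 0.00046), and Gata3 (-5.48, 0.00046). Crem (-4.17, 0.000483) and Zfp36l2, which binds AU-rich mRNA (-5.43, 0.00046), were also lower. Of the 6 other ErbB ligands 3 were higher, Nrg3 by 9.96, Epgn by 9.01 and Nrg2 by 4.04, as were Gab2 among the adaptors and Rhbdl2 among the proteases. Of the 10 RAS and MAP kinase genes 5 were lower, among them Araf by a difference of -2.53, and none was higher. The median level of this list was 9.86 CPM per exonic kilobase in C57BL/6J and 6.85 in CC030 naïve.

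From day 2 to day 6, 8 of 65 pathway genes tested rose and 3 fell with vehicle (16.9%, beside 17.3% of all genes), and 9 of 60 rose with AR420626 (15%, beside 11.2%). Adam17, the sheddase of amphiregulin, rose by 3.09 with vehicle (adjusted p = 0.0358), and its cofactor Frmd8 rose with both (3.15, 0.0229, and 2.58, 0.0220). Etv5, a transcription factor downstream of ERK, rose by 3.71 with vehicle (0.00481) and by 3.59 with AR420626 (0.00877). Dusp4, Usp8, Crem and Rela also rose with both, while Akt1 (-2.30, 0.00842), Src (-1.84, 0.0284) and Ptpn1 (-1.64, 0.0287) fell with vehicle. These names are those of the rows, and the moves described above apply to them as well.

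Over the 20 cultured libraries, rows most like Egfr were not genes of the pathway. Among 3241 genes with a mean of at least 50 counts, the highest Pearson r of log2(CPM + 1) with Egfr was that of Rorb (0.928), followed by Fryl (0.922), Col4a2 (0.892), Dock4 (0.874) and Tg, the gene of thyroglobulin (0.860). Tg was at 54.3 CPM with vehicle and 372.3 CPM with AR420626 at day 6. For Plek they included Wdfy3, Jmjd1c, Col27a1 and Trpm3 (0.799). For Areg they were A530040E14Rik (0.737), Gm7580, Kif1b, Heatr5a and Nufip2 (0.683), at counts of Areg of 14 or fewer. These libraries share mice, day and treatment, and the values are descriptions.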

How the data were processed

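RNA of lung ILC2s was made into libraries with the SMART-Seq v4 Ultra Low Input kit. The authors trimmed reads with fastp, aligned them with STAR, C57BL/6J to mm10 and CC030 to an mm9 pseudogenome converted to mm10 coordinates with lapels, and counted them with HTSeq, and the deposited values are these raw counts per gene. The annotation release and strand setting of the counting are not given in the sources used here. Of 55401 identifiers, 55141 matched GENCODE vM21 on GRCm38. The 5 HTSeq summary rows served only for the share of reads in genes. Genes were filtered by filterByExpr (minimum count 10, minimum total 15), scaled by TMM and tested with edgeR 4.0.16 (quasi-likelihood, robust) in R 4.3.3, with Benjamini-Hochberg adjustment over all genes tested at 0.05 and mouse as a block in culture. The test recovered changed genes when tested on simulated data. Few genes were changed there, in both directions, unlike the strain comparison, where 76.3% of genes were called. DESeq2 1.42.0 and the settings of the closing section were alternatives. Pairing in culture comes from the design, in which cells of 1 mouse were split, and deviations of same-numbered libraries correlated at -0.37 to 0.35. The position check moved genes by up to 3 Mb in steps of 1000 and then 50 bp, with a pseudocount of 1. CPM per exonic kilobase were not TMM-scaled, and the tables were scaled separately, so levels of naïve and cultured cells are set side by side without a test. Replicates are separate mice. The members and lists were chosen with earlier results of these data known. Named were the 10 genes, genes that fall on them or that they fall on at the best move, neighbours of Egfr within 500 kb, for every list at most 4 genes, taken in order of p, and the 5 genes most like Areg, Egfr and Plek. Overlaps at moves of the wider window were added after the values were seen. Results for 2 named genes are not reported here.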

Additional observations from a re-analysis of the deposited data

Results flagged for a closer look

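The effect of AR420626 on the Egfr row differed between day 6 and day 2 by 5.03 on the log2 scale in edgeR's interaction term. The call was lost without mouse 1, 2, 3 or 4, with log2 values of 4.57 to 5.07, and held without mouse 5 (5.70). In 6 of 40 groups of 5 libraries, 1 library stood far from the other 4, where chance gives about 1 in 20. These were Areg in vehicle day 6 of mouse 4 (1.85 scaled CPM, 2 counts), Tgfa in vehicle day 6 of mouse 3 (0 scaled CPM), Erbb2 in vehicle day 2 of mouse 5 (16.2), Plek in AR420626 day 2 of mouse 4 (30.3, the library with 227445 counts), Plek in vehicle day 6 of mouse 2 (11.7) and Plek in AR420626 day 6 of mouse 1 (5.81). The 6 libraries had 18 or fewer counts of these genes, and whether the rate of about 1 in 20 holds at such counts was not tested.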

How the results depend on the processing

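Egfr and Btc kept direction and call at day 6 in every setting in which they were tested. Requiring 10 counts in every library left Egfr untested there (1 of the 10 genes called in place of 2), gave 3573 genes and 0 of the 10 between the strains, and 6 genes and 0 of the 10 for the difference between the days. DESeq2 called 15 genes at day 2, as did no filter, 2 of the 10 for day 6 against day 2 with vehicle, 2806 genes for the same days with AR420626, and 75 for the difference between the days (20 without a filter). Without the replicate block the difference gave 2 genes and 0 of the 10, and the block changed no other call of the 10 in culture. Between the strains, whose numbers pair nothing, a block gave 26602 genes and 9 of the 10, with Hbegf at 6.46, and Hbegf also passed without C57BL/6J replicate 3 (9.46). Without mice 4 and 5, a choice made after seeing the data, 361 genes were called at day 6, 4337 (and 2 of the 10) for the days with vehicle, 3458 with AR420626 and 59 for the difference. Leaving out each replicate gave 604 to 1221 genes at day 6, lowest without mouse 1. It gave 994 (without mouse 4) to 5376 (without mouse 5) genes and 1 to 2 of the 10 for the days with vehicle, 253 (without mouse 3) to 2772 (without mouse 5) and 1 to 2 with AR420626, and 0 (without mouse 1) to 33 (without mouse 5) and 0 to 1 for the difference.

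Among the log2 differences of the 10 genes, only values that had not passed changed sign. At day 2, leaving out each replicate gave -0.51 to 0.46 for Hbegf, -0.80 to 0.33 for Btc and -0.085 to 0.60 for Erbb3. Hbegf was at -0.091 without the block, and without mice 4 and 5 the values were -0.58 for Hbegf, -0.30 for Erbb3, 0.15 for Ereg and -0.020 for Egfr. At day 6 Erbb2 was at -0.18 without a filter and at -0.37 to 0.47 without each replicate. For the days with AR420626, Ereg was at -0.62 to 0.047 without each replicate, reversed without replicates 3 and 5 (0.019). For the difference between the days, leaving out each replicate gave -0.010 to 0.66 for Erbb4, -0.30 to 0.28 for Hbegf (0.26 without replicate 3) and -0.69 to 0.13 for Tgfa, and without mice 4 and 5 the values were 0.20 for Hbegf, 0.26 for Tgfa and 0.096 for Erbb3.

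The best move in vehicle day 6 changed by over 5 kb in these settings. At Areg, Ereg and Btc it was 427750 bp with the wider window and with a pseudocount of 0.1, and 428950 bp by Spearman correlation, and leaving out each replicate gave -443900 to 427750 bp. At Hbegf it was 132000 bp by Spearman correlation and 149950 bp with the pseudocount of 0.1, and at Erbb3 -556750 bp by Spearman correlation. At Erbb4 it was 48050, 48250 and 48350 bp with the wider window, Spearman correlation and the smaller pseudocount. At Egfr it was -100400 bp with the wider window and -879150 bp by Spearman correlation. At Plek it was -100400, -2925650 and -2925950 bp with the wider window, Spearman correlation and the smaller pseudocount, and -2925950 to 394400 bp without each replicate. The cause of these changes was not tested. Counts of Areg under 15 in every CC030 library limit any statement on its change there.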
